A study of Mus musculus with 108 samples.

Results

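Open-chromatin fragments that gave strong reporter activity in embryonic stem (ES) cells were compared with those that gave weak activity. The 14 ES libraries of cells with a Low or higher reporter signal were used, of 108 samples in the series. Fragments released by the Tn5 transposase had been cloned before a minimal HSP68 promoter and Venus-YFP, a yellow fluorescent protein. Each construct was targeted to Hprt in HM-1, an HPRT-deficient mouse ES cell line made for gene targeting, and cells were sorted by fluorescence. In replicates 1 to 4 the positive gates were Low, Medium and High, and in replicate 5 they were Low and Medium/High. The distinct fragments of all gates above Low formed the high side of a replicate, and its Low gate was the other set, which gave 5 sets against 5. All sets came from undifferentiated ES cells with the reporter at the same locus, and the Negative gate of each replicate is given as background. The lists hold no gene expression, so the ES identity of the cells could not be checked against marker genes. HM-1 is a single cell line, and how many cells were sorted per gate was not found in the labels or methods.

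A promoter lies at the start of a gene and can begin transcription by itself, whereas an enhancer can lie far away and raises transcription from a promoter. In ES cells, enhancers of the pluripotent state carry sites for POU5F1 and SOX2, which bind side by side, and for KLF factors and ESRRB. GC boxes, CCAAT boxes and ETS sites are typical of promoters of widely expressed genes. In this assay a fragment of either kind sits before the same minimal promoter, so both can raise the reporter.

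The high side held 82272 fragments in replicate 1, 76111 in replicate 2, 14381 in replicate 3, 4155 in replicate 4 and 947 in replicate 5. The Low gate held 18647, 44090, 15096, 1884 and 1506 in the same order. The high side was thus larger than the Low gate in replicates 1, 2 and 4 and smaller in replicates 3 and 5. In all there were 200086 distinct fragments, 50387 of them distal and 149699 at promoters by the deposited classes, with lengths of 69 to 600 bp. A single fragment was worth 0.122 fragments per 10000 on the high side of replicate 1, but 10.6 in that of replicate 5, so the small sets set the precision of every value per locus.

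Several ES libraries stood apart or shared fragments against their numbers. Medium and High of replicate 1 had 38.3% of the smaller list in common, and shared 27.8% to 34.8% with the 4 libraries of replicate 2. Low of replicate 1 shared only 2.52% and 3.91% with Medium and High of its own replicate, and 2.95% to 3.63% with the libraries of replicate 2. The 4 gates of replicate 4 shared 24.3% to 41.5% with one another, and those of replicate 3 only 2.38% to 5.72%. Low of replicate 5 shared 30.5% with High of replicate 1 and 28.3% with Medium/High of replicate 5. Medium/High of replicate 5, its whole high side, shared 30.2% with Negative of replicate 2. Negative of replicate 5 shared 31.0% with Medium of replicate 2, and High of replicate 3 shared 15.3% with Medium of replicate 4. How fragments came to be shared between libraries was not tested, and the counts below are also given without each replicate or without shared fragments where a call changed.

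**Figure D1:**
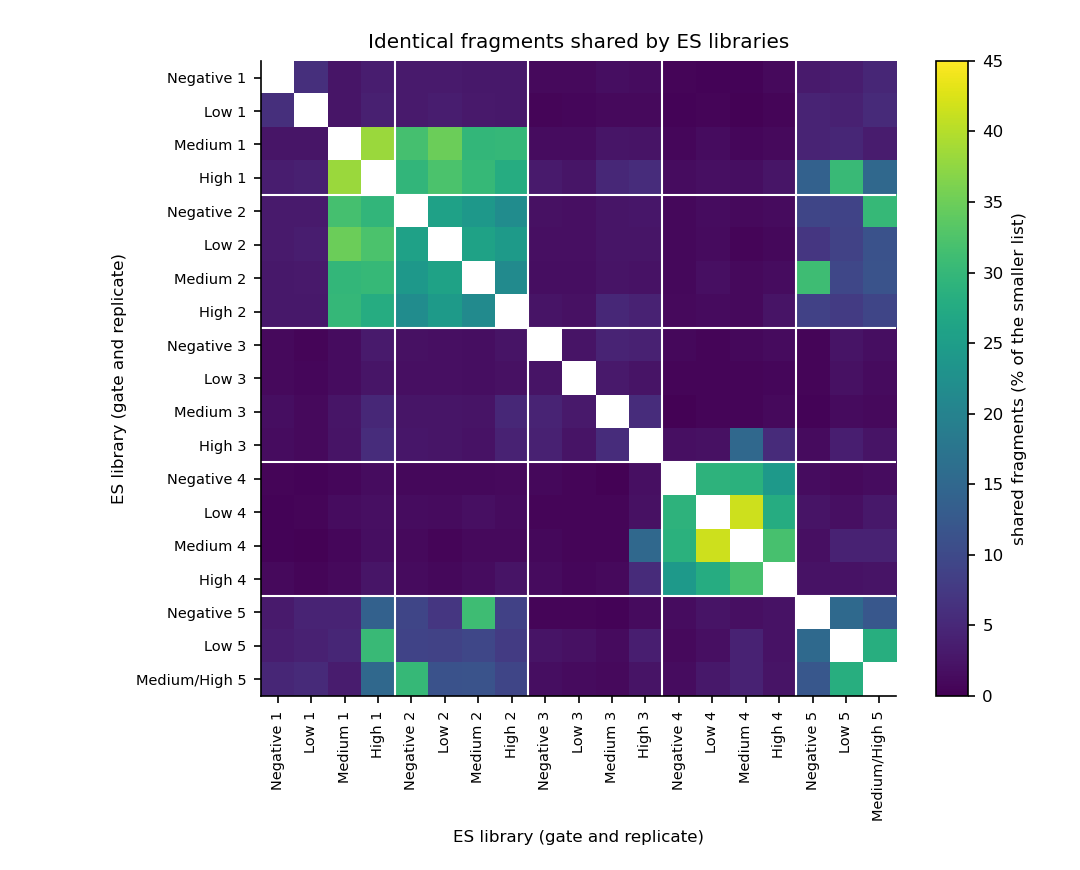
Identical fragments shared by the 19 ES libraries, as a percentage of the smaller of 2 lists (colour), with gate and replicate on both axes and white lines between replicates. Medium 1 and High 1 share 27.8% to 34.8% with all 4 libraries of replicate 2, whereas Low 1 shares 2.95% to 3.63% with those libraries and 2.52% and 3.91% with Medium 1 and High 1.

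The first question was whether the same integrated fragments were recovered above and below the Low boundary. Of 148566 fragments on the high side of any replicate, 28414 (19.1%) were also in a Low gate, which was 35.5% of the 79934 Low fragments. In 18950 of them both sides came from the same replicate, and in 9464 from different replicates only. Replicate 2 alone shared 16884 fragments between its sides, against 974, 315, 897 and 268 in replicates 1, 3, 4 and 5. Within a replicate, high side and Low gate shared 5.22%, 38.3%, 2.19%, 47.6% and 28.3% of the smaller set in replicates 1 to 5. The mean was 24.3% ± 20.1 (SD, n = 5), against 7.12% between sets of different numbers. The difference of 17.2 percentage points had p = 0.0333 (exact one-sided permutation test over 120 pairings). The high side of replicate 1 went against this order, since it shared 43.9% with Low of replicate 2. Without 1 replicate the difference was 8.07 to 25.0 percentage points, and without replicate 2, 3, 4 or 5 it no longer passed the threshold (p = 0.0833 to 0.167, exact permutation tests). Without replicate 1 it was 25.0 percentage points (p = 0.0417, exact permutation test). This is the smallest p that 4 replicates can give, so only the highest of all pairings could pass. A missed threshold here therefore cannot show that the difference depends on the replicate left out.

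A few fragments recurred on 1 side. On the high side, 28834 fragments were found in at least 2 replicates, but 27175 of these (94.2%) were fragments of replicates 1 and 2, whose libraries overlap as given above. In the Low gate, 1202 fragments were found in at least 2 replicates. Among fragments on the high side of at least 3 replicates and in no Low gate there were 193, of which 74 were distal, and 53 of these distal fragments were also absent from every Negative gate. Of these 53, 7 (13.2%) held a match to the octamer, SOX, ESRRB or KLF motif, against 6.73% of all 50387 distal fragments. This set was chosen after its values were seen, and no test was made.

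The following 5 distal fragments are those of the 7 with an octamer or SOX motif, and are printed because these are the sites bound by POU5F1 and SOX2. The other 2, near Dgka and Cryba4, hold the KLF motif. Each was read from the GRCm38 genome, the same as the mm10 build of the files, on the forward strand and 5′ to 3′, and capitals mark every match to a searched motif on either strand. Matches shown are to the octamer ATGCAAAT bound by POU5F1, the SOX motif CATTGTT, the TATA box TATAAAA, the CCAAT box GCCAAT, the AP-1 motif TGANTCA and the STAT motif TTCCNGGAA.
Nuak2, intron, chr1:132322547-132322788: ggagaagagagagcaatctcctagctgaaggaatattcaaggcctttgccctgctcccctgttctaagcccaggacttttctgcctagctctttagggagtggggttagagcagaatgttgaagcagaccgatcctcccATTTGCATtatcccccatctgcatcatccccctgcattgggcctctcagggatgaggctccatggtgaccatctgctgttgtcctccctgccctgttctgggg
Pttg1, intergenic, chr11:43385162-43385388: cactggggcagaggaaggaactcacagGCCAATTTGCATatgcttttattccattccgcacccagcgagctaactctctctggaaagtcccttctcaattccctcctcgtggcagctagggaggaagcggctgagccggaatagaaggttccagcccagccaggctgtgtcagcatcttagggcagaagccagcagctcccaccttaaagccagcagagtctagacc
Sik2, intron, chr9:50986897-50987111: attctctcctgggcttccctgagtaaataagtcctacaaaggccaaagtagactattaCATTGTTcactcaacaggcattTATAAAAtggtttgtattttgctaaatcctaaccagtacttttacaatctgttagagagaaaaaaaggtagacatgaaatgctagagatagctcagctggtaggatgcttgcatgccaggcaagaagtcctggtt
Snx11, intron, chr11:96622858-96622985: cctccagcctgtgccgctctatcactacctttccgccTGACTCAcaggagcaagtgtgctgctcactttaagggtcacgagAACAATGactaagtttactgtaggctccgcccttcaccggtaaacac
Nalcn, intron, chr14:123587506-123587607: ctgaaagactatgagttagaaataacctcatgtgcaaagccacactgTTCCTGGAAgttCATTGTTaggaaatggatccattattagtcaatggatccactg
The names are those of the nearest protein-coding start, which lay 6542 bp away at Nuak2, 40688 bp at Pttg1, 21932 bp at Sik2, 154609 bp at Snx11 and 39587 bp at Nalcn. The words intron and intergenic refer to protein-coding genes in general, so an intron need not belong to the named gene. The octamer stood in the Nuak2 and Pttg1 fragments, in Pttg1 run together with a CCAAT box, and the SOX motif in the other 3. Nuak2 and Sik2 encode kinases related to AMPK, and Pttg1 encodes securin, the inhibitor of separase. The fragment near Snx11 was found on the high side of replicates 1, 2 and 4, and the other 4 in replicates 1, 2 and 3. Without replicate 1 or without replicate 2, each of these fragments thus rests on 2 replicates.

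At least 4 replicates held the same fragment in 15 cases in the Low gate and in 14 on the high side. On the high side, 1659 fragments recurred in at least 2 replicates without being in both replicates 1 and 2. The high lists held 177866 fragments in sum and the Low lists 81223, and no equal numbers were drawn for single fragments. Of the Low fragments, 2 were in the Low gate of at least 3 replicates and on no high side, both at promoters and absent from the Negative gate. They were chr7:99140869-99141238 at Uvrag, an autophagy gene, and chr11:118290177-118290379 at Usp36, which encodes a deubiquitinase of the nucleolus. A distal fragment of 178 bp near Dnmt3a, the gene of a de novo DNA methyltransferase, was in the Low gate of 4 replicates, on the high side of replicate 4 alone and in 1 Negative gate (chr12:3781602-3781779). All 3 overlap exon bases outside coding sequence and are given by position.

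Some fragments recurred on both sides. There were 5 fragments on the high side of at least 4 replicates and in the Low gate of at least 4, and all 5 of them were also in 3 Negative gates. Of them, 3 are printed. The fragments of the high side alone were printed for holding an octamer or SOX motif, so motif content cannot be compared between these printed groups.
Rimbp2, promoter, chr5:128953508-128953603: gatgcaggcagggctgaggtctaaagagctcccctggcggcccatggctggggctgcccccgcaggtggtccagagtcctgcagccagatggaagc
Yjefn3, intron, chr8:69936589-69936771: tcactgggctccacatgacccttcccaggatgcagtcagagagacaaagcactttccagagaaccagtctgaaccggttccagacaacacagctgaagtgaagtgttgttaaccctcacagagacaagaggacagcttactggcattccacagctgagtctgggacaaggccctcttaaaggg
Hif1an, intergenic, chr19:44655778-44655921: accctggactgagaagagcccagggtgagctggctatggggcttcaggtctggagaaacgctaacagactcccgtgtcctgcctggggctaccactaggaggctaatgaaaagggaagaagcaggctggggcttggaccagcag
No letter is in capitals here, because none of the 17 motifs was found in these 3 fragments. The other 2 lay at the Fam199x promoter, in a fragment with a GC box, and 51975 bp from the start of Zfp958. Names and context are read as above. The Fam199x fragment was on the high side of all 5 replicates and in the Low gate of 4, and it was also identical to a fragment of the HM-1 control libraries, made from cells without reporters.

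The next question was whether high activity went with distal elements or with promoters. Distal fragments made up 24.1%, 24.4%, 33.2%, 26.0% and 29.5% of the high side in replicates 1 to 5. They made up 24.8%, 22.8%, 25.9%, 18.2% and 26.0% of the Low gate. The high side had the larger share in 4 of 5 replicates, replicate 1 being the exception, and the 2 ranges overlapped. The means were 27.4% ± 3.88 and 23.5% ± 3.24 (SD, n = 5 each). The difference of 3.88 percentage points did not pass the test (p = 0.159, adjusted p = 0.905, exact two-sided permutation test, adjusted over 13 measures). In the Negative gate the share was 25.0% ± 1.73 (SD, n = 5), between the other sides. The smallest p that 5 sets against 5 can give is 0.00794, which adjusts to 0.103 for a single measure among 13. No measure could therefore pass alone (3 would have had to reach that p together), and a missed threshold for one of these measures carries no information on whether the sides differ.

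**Figure D2:**
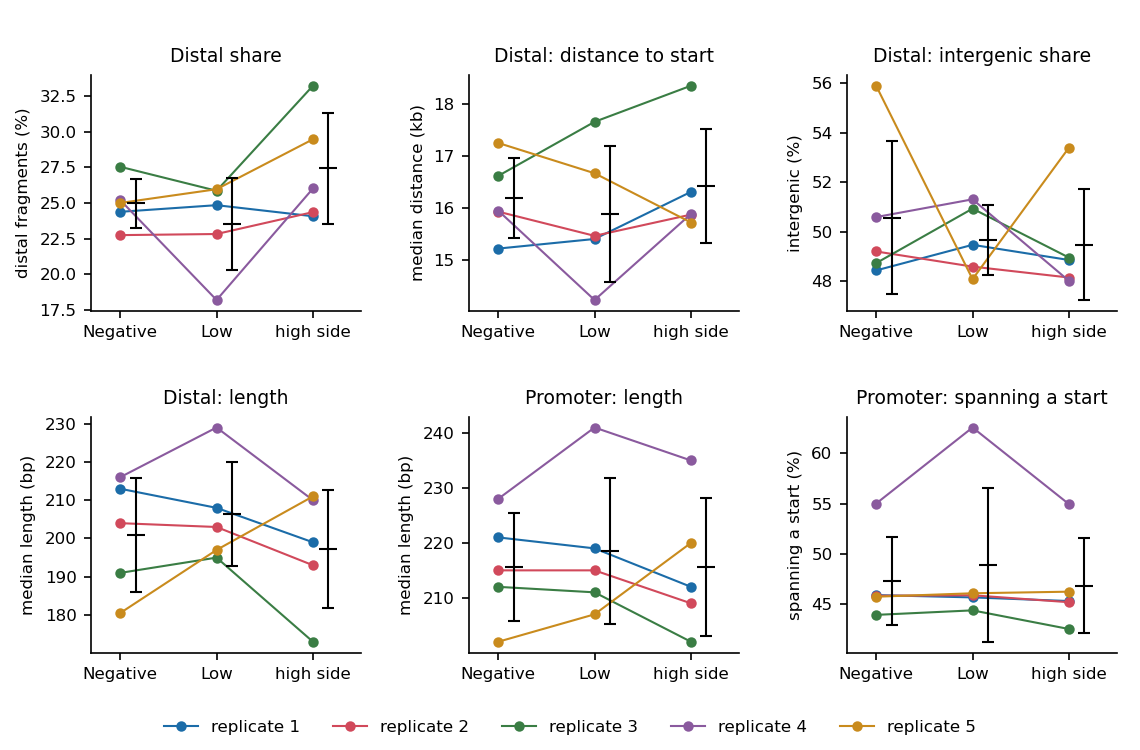
Shares, distances and lengths in the Negative gate, the Low gate and the high side of each ES replicate (coloured points joined by replicate), with the mean and SD of 5 replicates in black beside them. Vertical axes are shares in percent, median distance in kb or median length in bp, and do not start at 0. The ranges of Low gate and high side overlap in every panel.

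By gate, the distal share in Low, Medium and High was 24.8%, 24.2% and 23.7% in replicate 1, a falling order. It was 22.8%, 23.2% and 24.8% in replicate 2 and 18.2%, 20.995% and 28.8% in replicate 4, both rising. In replicate 3 it was 25.9%, 35.8% and 31.1%, highest in Medium. The mean slope was 2.08 percentage points per gate, or 1.01 without replicate 4 (p = 0.134, adjusted p = 0.262, exact permutation test of gates within replicates). None of the 5 measures tested for a trend over gates passed, with adjusted p of 0.262 to 0.304 by the same exact permutation test.

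The median distance of distal fragments to genes differed by less than the SD of the replicates' differences. Their median distance to the nearest protein-coding transcription start was 16308, 15869, 18357, 15882 and 15716 bp, against 15398, 15458.5, 17660, 14220 and 16667 bp in the Low gate. High side exceeded Low in 4 of 5 replicates, with replicate 5 the exception. The means differed by 546 bp, or by 267 bp without replicate 4 and 920 bp without replicate 5, with an SD of 957 bp between the replicates' differences (p = 0.484, adjusted p = 0.905, exact permutation test, n = 5). The share of distal fragments over 50 kb from a start was higher on the high side in 5 of 5 replicates, but by only 0.718 percentage points (20.9% ± 1.13 against 20.2% ± 1.22, SD, n = 5 each, p = 0.413, adjusted p = 0.905, exact permutation test). By replicate it was 20.5%, 20.2%, 22.9%, 20.5% and 20.4% against 20.3%, 19.2%, 22.2%, 19.2% and 20.2%. The replicates differed from one another by more than the sides did.

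The gene context of distal fragments did not pass the test. Intergenic fragments made up 49.5% ± 2.24 of the high side and 49.7% ± 1.42 of the Low gate (SD, n = 5 each, p = 0.889, adjusted p = 0.905, exact permutation test). Exons held 10.3% ± 1.54 and 9.88% ± 0.512 (SD, n = 5 each, p = 0.698, adjusted p = 0.905, exact permutation test), and introns 40.2% ± 3.69 and 40.4% ± 1.39. The midpoint lay in coding sequence for 6.57% ± 0.637 of distal fragments on the high side and 5.66% ± 0.804 in the Low gate. The high side was higher in 3 of 5 replicates. This difference exceeds either SD, and it was not tested. Other exon sequence went the other way, at 3.76% ± 0.97 and 4.225% ± 0.793, higher on the high side in 1 of 5 replicates. In replicate 5 the intergenic share was 53.4% on the high side, where the other replicates lay between 48.0% and 49.0%.

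At promoters, the position of a fragment relative to the start was compared in the same way. The median distance from fragment to start was 119, 117, 122, 107 and 114 bp on the high side and 123, 118, 122, 90 and 109 bp in the Low gate. The difference of 3.4 bp (0.0 bp without replicate 4) had p = 0.738 and adjusted p = 0.905 by the exact permutation test (n = 5). Fragments that span a start made up 45.3%, 45.2%, 42.5%, 54.9% and 46.3% of promoter fragments on the high side. In the Low gate they made up 45.7%, 45.9%, 44.4%, 62.6% and 46.1%. The high side was lower in 4 of 5 replicates, by 2.07 percentage points on average and by 0.686 without replicate 4 (p = 0.595, adjusted p = 0.905, exact permutation test). Both sides of replicate 4 stood above the other replicates, and so did its Negative gate at 55.0%.

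Fragments of the high side were shorter in 4 of 5 replicates, but the difference was within the spread. Distal fragments had a median length of 199, 193, 173, 210 and 211 bp on the high side and 208, 203, 195, 229 and 197 bp in the Low gate. The mean difference was -9.2 bp, or -6.0 bp without replicate 3 and -15.0 bp without replicate 5, with an SD of 14.1 bp between replicates (p = 0.389, adjusted p = 0.905, exact permutation test, n = 5). Replicate 5 went the other way by 14 bp, and its sets were the smallest. Promoter fragments measured 212, 209, 202, 235 and 220 bp against 219, 215, 211, 241 and 207 bp (p = 0.706, adjusted p = 0.905, exact permutation test). The median length of distal fragments was lower in High than in Low in each of replicates 1 to 4, at 199 against 208, 188 against 203, 176 against 195 and 181 against 229 bp. Medium did not lie between them in replicates 3 and 4, at 168 and 259 bp, and the slope of -11.4 bp per gate (-7.17 bp without replicate 4) had p = 0.123 and adjusted p = 0.262 (exact permutation test, n = 4).

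GC content differed by less than the spread in both classes. It was 57.2% ± 0.981 on the high side and 57.1% ± 0.437 in the Low gate for distal fragments (p = 0.905, adjusted p = 0.905, exact permutation test, n = 5). For promoter fragments it was 65.4% ± 0.465 and 65.7% ± 0.235 (SD, n = 5 each, p = 0.357, adjusted p = 0.905, exact permutation test).

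The number of places in the genome was compared at equal fragment numbers. Drawn down to 279 distal fragments, the high sides of replicates 1 to 5 covered 273, 273, 275, 267 and 268 distal sites and the Low gates 273, 272, 274, 231 and 277. Drawn down to 668 promoter fragments, they covered 637, 637, 641, 614 and 636 promoter loci and 636, 637, 638, 561 and 627. The Low gate of replicate 4 covered the fewest of all sets in both classes. The differences of 5.98 distal sites and 13.1 promoter loci had adjusted p = 0.905 (p = 0.857 and p = 0.556, exact permutation tests, n = 5). Without that replicate the sites differed by -1.51 and the promoter loci by 3.22.

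Single loci were tested next, each being a stretch of overlapping fragments from all sorted libraries. Of 16997 distal sites with a fragment on either side, 50.6% of those on a high side were also in a Low gate and 78.5% of those in a Low gate were also on a high side. Of 13209 promoter loci the shares were 86.2% and 96.0%. Limma tested the 11737 loci present in 4 or more of the 10 sets, 3149 of them distal, on the log2 of fragments per 10000 with 1 added. None passed an adjusted p of 0.05, so that 0.0% was called, and the smallest adjusted p was 0.998. At an unadjusted p of 0.05 there were 87 higher on the high side (0.741%) and 36 lower (0.307%). Summed over genes by their nearest start, limma called 0 of 10634 genes (0.0%), with 77 higher (0.724%) and 37 lower (0.348%) at that unadjusted p. No locus or gene is called from these counts. The filter let in 36 loci found on the high side alone and 1 found in the Low gate alone, so the counts of loci in each direction are partly set by it. At equal fragment numbers the counts evened out, at 50 loci higher and 52 lower and 51 genes higher and 40 lower. With Medium left out there were 34 and 32 loci and 46 and 44 genes, and with at least 6 sets 19 and 21 loci and 24 and 25 genes.

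No common order of loci was seen between replicates, under the limits given below. The high minus Low differences of any pair of replicates correlated across 11737 loci with r from -0.02 to 0.04. Loci of a set share its library and depth and are not independent replicates. Among 6058 loci with at least 5 fragments in replicate 1 and at least 5 in replicate 2, the deepest replicates, 48.9% had the same sign in both (r = -0.02). The fragments per 10000 themselves correlated across loci with a median r of 0.16 over the 45 pairs of sets, from 0.05 to 0.82. The highest was between the high sides of replicates 1 and 2, which share fragments as given above. The high side of replicate 1 had r = 0.76 with Low of replicate 2 and 0.48 with its own Low. It shared 43.9% of the smaller set with Low of replicate 2 and 5.22% with its own Low. The same fragments thus enter the differences of replicates 1 and 2 on opposite sides, so this pair cannot show whether loci are ordered alike. The other pairs include smaller sets, in which a single fragment weighs more.

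**Figure D3:**
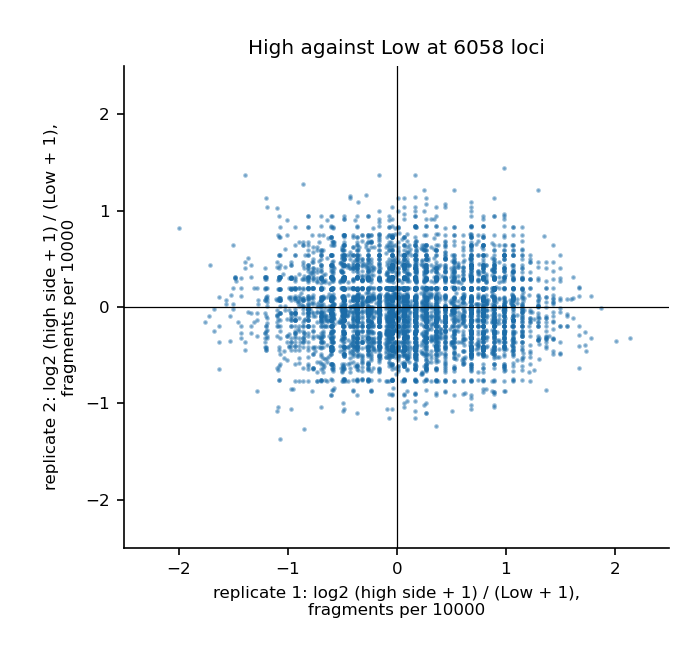
The log2 ratio of high side to Low gate, each as fragments per 10000 with 1 added, at 6058 loci (points) with at least 5 fragments in each of replicates 1 (horizontal) and 2 (vertical). The points form a round cloud about 0, and 48.9% lie in the 2 quadrants of equal sign. The high side of replicate 1 shares 43.9% of the smaller set with Low of replicate 2, which limits this comparison.

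The loci with the lowest unadjusted p are given as values that did not pass. A promoter locus at Zfp422, a zinc finger gene, held 4, 4, 1, 1 and 1 fragments on the high sides of replicates 1 to 5 and 0, 1, 0, 0 and 0 in the Low gates (log2 difference 1.39 ± 0.56 SE, limma adjusted p = 0.998). Every high side held a fragment there, and 1 Low gate did. An intronic site at chr2:4461405-4462087 had its nearest start at Frmd4a, a gene of cell polarity. It held 1, 11, 5, 1 and 0 fragments against none in any Low gate, with 1 in the Negative gate of replicate 2. An intronic site nearest to the start of Spag6 held 2, 1, 0, 1 and 1 against none, but the Negative gates held 8 there. The promoter locus chr16:25058815-25059945, with no protein-coding start within 100 kb, held 15 fragments on the high side and 1 in the Low gate.

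In the other direction, a promoter locus of Ppp1r1b, the gene of a phosphatase inhibitor known as DARPP-32, held 3, 0, 0, 0 and 0 fragments on the high side and 1, 1, 2, 1 and 1 in the Low gate (log2 difference -1.45 ± 0.59 SE, limma adjusted p = 0.998). All 5 Low gates held a fragment there, and 1 high side did. At B4galt3, a galactosyltransferase gene, there were 2 fragments against 7, with 4 of the 7 in replicate 4. At Arhgap45 there was 1 against 5, and at Gpatch2 (chr1:187215223-187215926) none against 4.

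Loci found on 1 side only depended on the size of the lists. With a fragment in at least 4 high sides and no Low gate there were 36 loci (0.119% of 30206), 21 of them distal, among them those at Frmd4a, Ccdc124 with 13 fragments and Fam163b with 11. The reverse held for 1 locus (0.00331%), the Gpatch2 promoter. Of the 36, 30 held a fragment in a Negative gate. When equal fragment numbers were drawn from both sides of each replicate, 6.1 loci (3 to 11 over 20 draws) were in at least 4 high sides only and 6.65 (3 to 11) in at least 4 Low gates only. The excess of 36 over 1 was thus not seen at equal numbers.

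The genes with the lowest unadjusted p did not pass either. Gadd45g, a stress-induced gene that restrains the cell cycle, had 15, 6, 2, 7 and 0 fragments on the high side and 0, 2, 0, 0 and 0 in the Low gate, 28 of the 30 high ones distal (log2 difference 1.44 ± 0.58 SE, limma adjusted p = 0.999). Replicates 1 to 4 were higher and replicate 5 had none. Nrn1, which encodes neuritin, had 7 distal fragments against 0, and Mrpl23, of the mitochondrial ribosome, 11 against 0. Lower on the high side were Wrn, the Werner syndrome helicase, with 4, 6, 0, 0 and 0 against 1, 6, 2, 1 and 1, and Lefty2, an inhibitor of Nodal signalling, with 2 fragments against 5. Of the 5 at Lefty2, 2 came from replicate 5. The limma adjusted p was 0.999 for each of these genes.

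Genes of the pluripotency network were found on both sides. Raw fragment counts are given below for each set, and since the high lists are larger in sum, the direction is read per 10000. Unless called pooled, values per 10000 are means over the 5 sets of a side, so a single fragment of a small set can weigh most. Over all 10634 genes tested, 5527 (52.0%) were higher on the high side, which is the background for the counts of each list. Of 26 pluripotency factors, 24 had a fragment, 14 could be tested, 7 of the 14 were higher and none passed (median log2 difference 0.05, against 0.01 over all 10634 genes). Summed over the list, the high side held 13.1 ± 3.84 and the Low gate 11.1 ± 3.76 fragments per 10000 (SD, n = 5 each), higher in 4 of 5 replicates, with 16.6 ± 6.42 in the Negative gate. Esrrb, a nuclear receptor of the naive state, had 10, 7, 0, 0 and 1 fragments on the high side and 0, 3, 1, 0 and 0 in the Low gate. Of its 18 high fragments, 15 were distal (log2 difference 0.83 ± 0.53 SE, limma adjusted p = 0.999). Most of this difference rests on the 1 fragment of replicate 5, which is worth 10.6 per 10000. Klf5 had 7, 7, 3, 2 and 0 against 0, 5, 2, 0 and 0, and Klf2 18, 21, 3, 0 and 0 against 4, 7, 3, 0 and 0. Both are KLF factors of self-renewal, and the Negative gates held 12 and 16 fragments at them.

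Pou5f1, which encodes OCT4, had 1, 3, 2, 0 and 0 promoter fragments on the high side and none in any Low or Negative gate. This is 0.337 per 10000 pooled over the high sides, below the 0.369 per 10000 that a count of 0 (3 counts of 81223 listed fragments) allows in the Low gate, so a difference was not detectable at this depth. Nanog had 3, 1, 3, 0 and 0 distal fragments against 0, 3, 0, 0 and 0. Sox2 had 5 fragments on each side. Tbx3, a factor of the naive state, went the other way per 10000, at 2.20 ± 2.84 on the high side and 4.39 ± 4.18 in the Low gate (SD, n = 5 each, limma adjusted p = 0.999), with fragments in 3 high sides and all 5 Low gates.

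Signalling and chromatin genes did not pass either. Of 24 genes of LIF, STAT3 and naive-state signalling, 21 were tested and 13 of them were higher, none past the threshold (median log2 difference 0.11). The list held 32.1 ± 5.93 fragments per 10000 on the high side and 28.9 ± 11.8 in the Low gate (SD, n = 5 each). Socs3, the feedback inhibitor of STAT3, had the most fragments, 39, 41, 5, 1 and 0 against 8, 26, 0, 1 and 0, and 65 of the 86 high ones were distal. Per 10000 it was at 3.202 and 3.099. Smad7, an inhibitor of TGF-beta signalling, was at 2.53 on the high side and 2.95 in the Low gate (55 and 27 fragments), and Id3, a BMP target, at 3.31 and 1.45 (35 and 20 fragments). Of 23 ES chromatin regulators, 22 were tested and 10 were higher (median -0.04), with 19.0 ± 4.75 against 19.9 ± 5.36 per 10000 (SD, n = 5 each), and 21.1 against 19.9 without replicate 5. Ep400, a chromatin remodeller, was at 3.90 and 2.49 per 10000 (58 and 31 fragments, none of them distal). Ctcf was at 2.36 and 1.34 (39 and 21 fragments, 24 and 17 of them distal). Counted against the 177866 and 81223 fragments listed in sum, Id3, Ep400 and Ctcf were lower on the high side. The direction at these genes thus depends on how the sets are weighted. Of 10 genes of primed pluripotency 7 were tested and 4 were higher, and Dnmt3a was at 1.57 per 10000 on the high side and 3.39 in the Low gate (35 and 17 fragments).

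**Figure D4:**
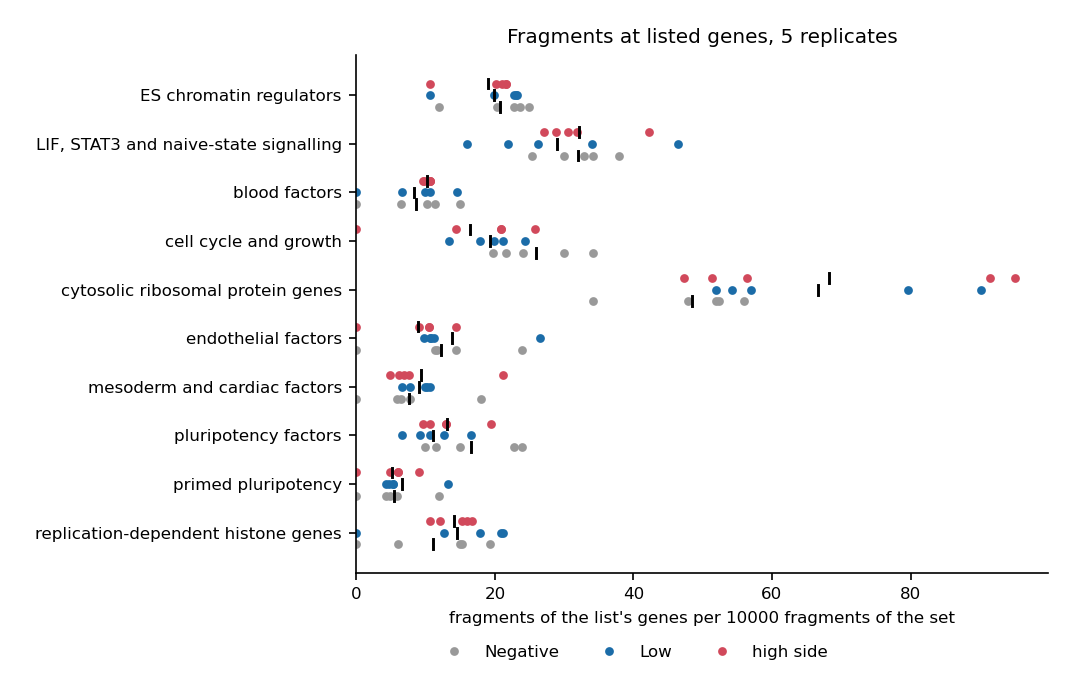
Fragments at the genes of 10 lists, summed per list as fragments per 10000 fragments of the set (horizontal axis), for the Negative gate (grey), Low gate (blue) and high side (red) of the 5 ES replicates, with the mean as a black bar. Low gate and high side overlap in every list, as in the pluripotency factors with means of 13.1 on the high side and 11.1 in the Low gate.

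Among widely expressed genes no member passed. Cytosolic ribosomal protein genes held 68.3 ± 23.0 fragments per 10000 on the high side, 66.6 ± 17.3 in the Low gate and 48.4 ± 8.52 in the Negative gate (SD, n = 5 each). In replicates 1 to 3 all gates lay between 47.3 and 56.97, and the Negative gate was lower only in replicates 4 and 5, at 47.9 and 34.1 against 91.5 and 95.0 on the high side. Without replicate 5 the high side was at 61.6 and the Low gate at 63.3. Of 66 tested, 39 were higher and none passed, and 15.3% and 15.1% of their fragments were distal. Rpl27 was at 3.40 and 3.31 per 10000 (49 and 17 fragments) and Rps21 at 3.32 and 2.37 (46 and 20 fragments). Cell cycle and growth genes held 16.4 ± 10.0 and 19.3 ± 4.05 per 10000, with none of 20 genes found on the high side of replicate 5. Without that replicate they held 20.5 and 19.2, the other way round. Ncl, which encodes nucleolin, had 23, 26, 2, 0 and 0 against 4, 16, 2, 1 and 1, which per 10000 is lower on the high side, at 1.52 and 3.81. The single Low fragments of replicates 4 and 5 are worth 5.31 and 6.64 per 10000, and this direction at Ncl rests on them. Ccne1, encoding cyclin E1, had 28, 19, 6, 0 and 0 against 3, 13, 2, 0 and 0, or 2.01 and 1.18 per 10000. Of 22 tested histone genes 8 were higher, and the list held 14.1 ± 2.67 and 14.5 ± 8.82 per 10000 (SD, n = 5 each), in the reverse order without replicate 1 (13.8 and 12.95) or 4 (14.6 and 12.9).

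Genes that act in later stages gave fragments as well. Of 16 blood factors 15 had a fragment, and the list held 10.3 ± 0.525 per 10000 on the high side and 8.34 ± 5.43 in the Low gate (SD, n = 5 each). It was higher in 2 of 5 replicates, and without replicate 4, whose Low gate held none, both sides were at 10.4. Meis1, a homeobox gene, was at 1.65 and 0.834 per 10000, and 29 of its 29 high and 7 of its 11 Low fragments were distal. Gata2, a factor of blood stem cells, was at 0.898 and 0.814 per 10000 (13 and 10 fragments, all distal), with 1 in the Negative gates. Counted against all fragments listed in sum, Gata2 was lower on the high side. Endothelial factors held 8.88 ± 5.35 and 13.8 ± 7.16 per 10000 with 4 of 13 tested higher. Without replicate 5, whose high side held none, they were at 11.1 and 10.6, the other way round. The endothelial list was higher on the high side in replicate 4 alone, at 14.4 and 10.6. Mesoderm and cardiac factors held 9.34 ± 6.67 and 9.02 ± 1.74 with 5 of 14 tested higher, but the list was higher in replicate 5 alone, and without it at 6.39 and 9.61. No member of these lists passed, and 1 member of all 10 lists, Lefty2, had an unadjusted p under 0.05.

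Motifs of transcription factors, searched on both strands of the central 200 bp of each fragment, are given with the same test. None of 34 tests, 17 motifs in distal and promoter fragments, passed (0.0% called, adjusted p of 0.891 to 0.960, exact permutation test adjusted over 34). A single motif at the smallest p would adjust to 0.270, and 6 would have had to reach it together, so that no motif could pass alone and the values are a description. The SOX motif stood in 2.44% ± 0.619 of distal fragments of the high side and 1.97% ± 0.525 of the Low gate, higher in 4 of 5 replicates (SD, n = 5 each, p = 0.230, exact permutation test). The octamer stood in 1.63% ± 0.460 and 1.44% ± 0.336, higher in 4 of 5 replicates, and the 2 motifs stood in 1.26% and 2.57% of all ES distal fragments, octamer first. The distal means of the other 2 motifs of the pluripotent state were lower on the high side. ESRRB stood at 0.377% and 0.509%, higher in 2 of 5 replicates, and KLF at 2.98% and 3.03%, higher in 3 of 5. In promoter fragments the octamer was lower on the high side, at 0.639% and 0.754%, and so was SOX, at 0.586% and 0.678%. The RUNX motif TGTGGTT, bound by a factor of later blood stages, was lower in 5 of 5 replicates, at 3.64% ± 0.225 and 3.86% ± 0.128 (SD, n = 5 each, p = 0.119, exact permutation test), against 3.73% of all ES distal fragments. The cyclic AMP response element TGACGTCA was lower in distal fragments in 5 of 5 replicates and higher in promoter fragments in 5 of 5, by -0.21 and 0.16 percentage points. It stood in 0.848% of all ES distal and 1.97% of all ES promoter fragments. The GC box GGGGCGG, the most frequent motif, stood in 33.3% ± 1.504 of promoter fragments of the high side and 33.9% ± 0.452 of the Low gate, and in 33.9% of all ES promoter fragments.

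**Figure D5:**
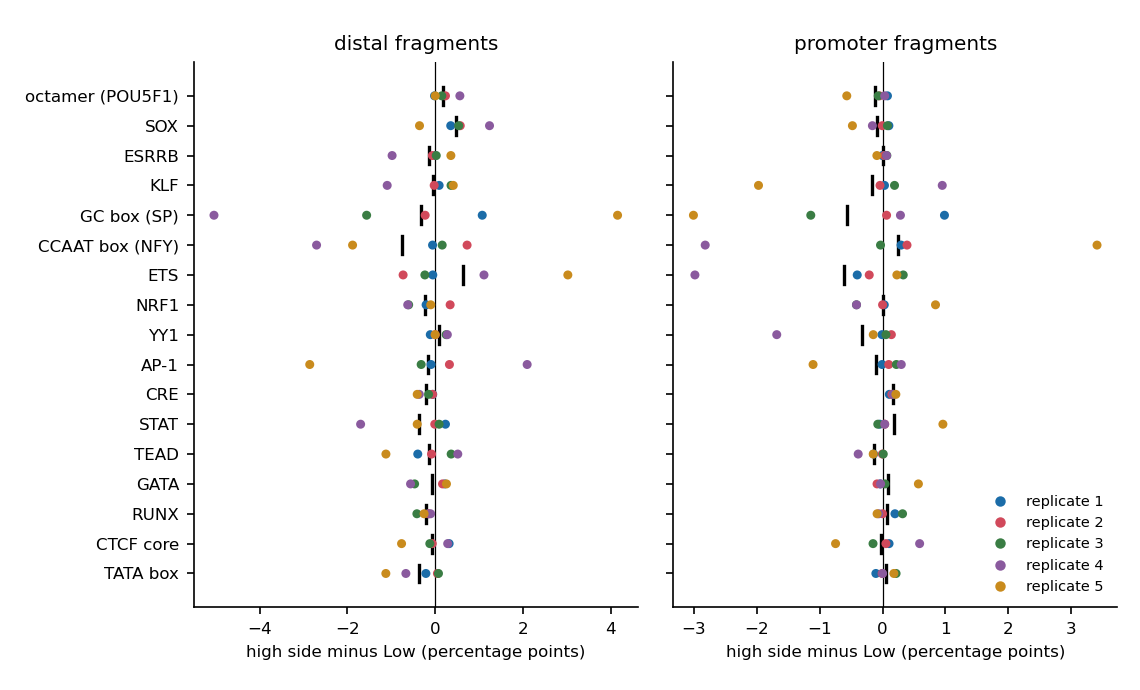
Difference in the share of fragments with a motif, high side minus Low gate in percentage points (horizontal axis), for 17 motifs in distal (left) and promoter fragments (right), with 1 point per ES replicate and the mean as a black bar. Replicates 4 and 5, the smallest sets, lie farthest from 0 for most motifs, and the SOX mean in distal fragments is 0.469.

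Last, the ES differences were set against those of hemangioblasts (HB), mesodermal precursors of blood and endothelium, and of hematopoietic progenitors (HP), built in the same way. The high side exceeded Low in distal share by 3.88 ± 3.70 percentage points in ES cells, 1.95 ± 3.70 in HB and 0.960 ± 2.62 in HP (SD, n = 5 each). Median distal length differed by -9.2 ± 14.1, -18.4 ± 27.7 and -10.0 ± 7.65 bp. None of 6 differences between stages passed (adjusted p = 0.774 to 0.921, exact permutation tests adjusted over 6, where a single result could reach 0.0476). A difference particular to ES cells was not found with 5 replicates per stage.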

How the data were processed

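Fragments recovered from sorted ES cells were analysed as lists. According to the study's methods, the authors combined an earlier and a later sequencing run, ran TrimGalore and Bowtie2 (mm10 build), kept mapping quality 40 and wrote each pair as 1 interval without duplicates. Fragments were held against plasmid, HM-1 control and open-chromatin lists and split by distance to a transcription start. The deposited sorted lists hold intervals only, so a read count, PCR duplication and depth cannot be recovered, and the plasmid and control lists were deposited by the authors with a count of reads per fragment, used here for identity only. Sorted starts were moved down by 1 bp, after which 81.4% of the fragments were identical to a plasmid fragment (4.00% as deposited) and 0.524% to an HM-1 control fragment. Of 282848 listed fragments, 159 lay outside the 22 mm10 chromosomes and were left out.

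The high side was the union of Medium, High and Medium/High lists of a replicate. Distances and gene context used protein-coding GENCODE M21 basic transcripts, and 4.87% of deposited distal fragments lay within 1.5 kb of such a start. Differences of 5 against 5 used exact two-sided permutation tests and Benjamini-Hochberg adjustment within families. Loci and genes (distal fragments within 100 kb and promoter fragments summed) were tested with limma 3.58.1 (lmFit, eBayes with trend) in R 4.3.3, and the other steps ran in Python 3.11.15 with numpy 2.4.6. Equal fragment numbers were drawn 100 times. The tests were also run on simulated data, and those outcomes are not given here. Labels do not say that replicates were separate cultures, so p-values measure the spread between these samples, and floors cover counting error only.

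The sets, gene lists, motifs and rules were chosen with earlier results of these data known. Named were genes of the lists with most fragments, the 4 loci and genes per direction with the lowest p, the loci with most fragments and loci in at least 4 sets of 1 side and none of the other. The 6 loci with most fragments per 10000 lay at Chd2, Zfp958, Phf19, Smndc1, Derl2 and Dnpep, and none of them passed (limma adjusted p = 0.998). Replicate numbers were not taken as pairs, because high side and Low gate of a number deviated together across loci only weakly in replicate 3 (r in replicates 1 to 5 of 0.16, 0.29, 0.08, 0.38 and 0.25, where every r had to exceed 0.1). Alternatives were Medium left out, fragments of both sides left out, plasmid-identical fragments only, control fragments left out, the mean over libraries, equal fragment numbers, a replicate block, other starts, filters, bins and values added, and each replicate left out. Fragments found in 1 ES replicate only, equal draws for loci of 1 side, and gene lists without each replicate, were added after seeing the data.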

Additional observations from a re-analysis of the deposited data

Results flagged for a closer look

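Of 108 groups of 5 values, 28 held a value far from the other 4. The sets ranged from 947 to 82272 fragments, so their spreads differ and this count is not set against a chance rate. Most of the 28 values came from replicates 4 and 5, the smallest sets, and how far their size accounts for it was not tested. In replicate 3, the high side had a median distal distance of 18357 bp, against 15716 to 16308 bp in the others, and 22.9% of its distal fragments lay over 50 kb from a start, against 20.2% to 20.5%. The TATA box stood in 0.698% of its promoter fragments, against 0.449% to 0.520%.

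In replicate 4, 62.6% of Low promoter fragments spanned a start, against 44.4% to 46.1%, and the high side differed from it by -7.61 percentage points. Its Low gate covered 231 distal sites and 561 promoter loci at equal fragment numbers, against at least 272 and 627 in the others, and its high side covered 614 promoter loci, against at least 636. The differences between its sides were 35.9 distal sites and 52.5 promoter loci. On its high side the KLF motif stood in 2.41% of distal fragments and the NRF1 motif in 3.61% of promoter fragments. In its Low gate the CRE, STAT and RUNX motifs stood in 1.75%, 2.62% and 4.08% of distal fragments. The CCAAT box, ETS and YY1 motifs stood in 17.9%, 17.7% and 4.48% of its Low promoter fragments.

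In replicate 5, 53.4% of high distal fragments were intergenic, and high promoter fragments were 13 bp longer than Low ones, against differences of -9 to -6 bp in the others. The STAT motif stood in 0.358% of its high distal fragments and 1.497% of its high promoter fragments. The octamer and the SOX motif each stood in 0.1497% of its high promoter fragments and the ESRRB motif in 0.0%. The CCAAT box stood in 19.0% and the GATA motif in 1.20% of them, and the CRE motif in 1.44% of its Low promoter fragments. The high side held 279 distal and 668 promoter fragments, so the lowest of these shares stand for a single fragment or none.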

How the results depend on the processing

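For the 13 measures the tests could not show stability, because a single measure at the smallest p adjusts to 0.103 with 5 sets against 5, to 0.371 with 1 replicate left out and to 0.8125 with sign flips. Of 30 alternative trend values none passed (smallest adjusted p = 0.185, exact permutation tests). Differences near 0 changed sign. With Medium left out, the intergenic share differed by 0.128 and GC content of distal fragments by -0.0298 percentage points, and the length difference in ES minus that in HP was -4.5 bp. With plasmid-identical fragments only, GC content differed by -0.134 percentage points and distal sites by -0.376. With fragments of 1 ES replicate only, chosen after seeing the data, the intergenic, exon and GC differences were 0.178, -0.404 and -0.219 percentage points. Leaving out 1 replicate gave -1.58 to 0.571 for the intergenic share, -0.243 to 0.745 for the exon share, -0.288 to 0.285 for GC content, -1.51 to 9.61 distal sites, 3.22 to 16.4 promoter loci, and 8.07 to 25.0 percentage points for fragments shared within a replicate. Against HP it gave -815.5 to 1166 bp for distance and -5.25 to 5.25 bp for length. The causes were not tested.

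Limma called 0 loci in 14 and 0 genes in 13 alternatives, with 10 to 149 loci higher and 0 to 83 lower at an unadjusted p of 0.05 (smallest adjusted p = 0.766). For genes these were 15 to 139 and 1 to 67 (0.803). None of 184 values of named loci and genes changed sign. These loci and genes were named for the lowest p in each direction of the same data. A kept sign was therefore likely beforehand and does not show stability. With the replicate number as a block, limma found 84 loci higher and 35 lower at an unadjusted p of 0.05 (smallest adjusted p = 0.781) and 110 genes higher and 37 lower (0.803), and no call changed. For the measures and motifs the block is an exact sign-flip test whose smallest p is 0.0625, so that it could add no call. In this exact test that p was reached by 1 measure, the share over 50 kb (difference 0.718, SD of differences 0.486), and by 3 motif tests, distal RUNX and CRE and promoter CRE, while the distal share had p = 0.125 (exact sign-flip test). The lists give presence without reads, so a single fragment in a small set weighs most, and differences within the spread of 5 sets were not detectable.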
